A study of Homo sapiens with 16 samples.

Results

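The genes described here are 9 members of the pathway that senses DNA in the cytosol and of the receptor for the interferon it induces: Cgas, Sting1 (listed under its older symbol Tmem173), Tbk1, Irf3, Trex1, Samhd1, Ifnb1, Ifnar1 and Ifnar2. They were chosen by name, and all 9 were found among the 32285 genes of the deposited matrices. The cells come from mammary tumors of female FVB mice, bought at 6 weeks of age and transplanted in the mammary fat pad with pieces of LPA1-T22 (T22) or LPA1-T127 (T127) tumors, 2 transplantable tumor lines derived from mice with a lysophosphatidic acid receptor transgene active in the mammary epithelium. In the long-term experiment T22 and T127 tumors were grown alone or together in opposite fat pads, and mice received vehicle or olaparib, a PARP inhibitor, at 50 mg/kg daily for 20 days. In the short-term experiments T22 and T127 tumors were grown in separate mice that received vehicle or the same dose of olaparib for 4 or 8 days. Tumors were labelled with multiplexing oligos, mixed, and captured in 8 long-term pools, 4 short-term T22 pools and 4 short-term T127 pools. Every pool mixes tumors and treatments, and the tumor of origin of a cell was not known here, so vehicle and olaparib were not compared. The comparisons below are between cell types, between the malignant cells of the T22 and T127 lines, and between experiments.

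In this pathway, cGAS (Cgas) binds double-stranded DNA in the cytosol and makes the second messenger cGAMP, which STING (Sting1) binds. STING then recruits the kinase TBK1, which phosphorylates the transcription factor IRF3, and IRF3 turns on the gene for interferon beta (Ifnb1). TREX1 is an exonuclease that degrades cytosolic DNA, and SAMHD1 hydrolyses deoxynucleotides and acts at stalled replication forks, and loss of either is known to raise type I interferon. Interferon beta acts through a receptor made of IFNAR1 and IFNAR2. Cytosolic DNA that follows DNA damage, as under PARP inhibition, is a known input of the pathway, and macrophages and dendritic cells are known sites of its output in tumors.

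The pools held 30845 long-term, 15094 short-term T22 and 8007 short-term T127 cells. Totals per pool were 34755906 to 55600377 unique molecular identifiers (UMIs, each marking 1 captured mRNA), and the median per cell was 3105 to 11712 UMIs in long-term, 7730 to 8528 in short-term T22 and 22712 to 26017 in short-term T127 pools. There was an overlap of 3939 barcodes between long-term pools 1 and 2, of 987 between pools 1 and 3, and of 1082 between pools 2 and 3. The deepest copy of each shared barcode was kept, which left 25723 long-term cells. Pools of different experiments had at most 11 barcodes in common. Cell types are the cluster names deposited by the authors. Most of the cell types with markers examined carried them. Siglech was at 878 UMIs per 1000000 UMIs (CPM) in long-term pDC and at 4 CPM or less in every other long-term cluster of at least 50 cells. Mki67 was at 482 CPM in Macro-MKI67, its highest of these clusters. No genes that set CD16-CDKN1C, Macro-M1 or Macro-M2 apart from other myeloid cells were examined, nor were Tcf7 and Ccr7 for the T cell clusters named after them. The names went against the markers in part for CD14-IL1B and CD14-PF4, which held Epcam, an epithelial gene, at 992 and 851 CPM beside Lyz2 at 3572 and 8262 CPM. CD14-PF4 also held Krt18 at 647 CPM. Cd14 itself was highest in Macro-M1 and Macro-M2, at 2288 and 1885 CPM, and not in either cluster named for it. T127 malignant cells held Epcam at only 4.31 CPM, against 1668 CPM in T22 malignant cells, with the keratin gene Krt8 at 635 and 940 CPM. Some fibroblast genes were also high in long-term malignant clusters. Acta2 was at 7275 CPM in Malign_2 and 7437 CPM in the myofibroblast cluster my_CAF. Dcn was at 4324 CPM in Malign_1 and Pdgfra at 155 CPM in Malign_0, against 6544 and 323 CPM in the fibroblast cluster i_CAF. Col1a1, Col3a1, Pdgfrb and Rgs5 had no malignant cluster as highest or second highest.

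A level is the sum of a gene's UMIs in a cluster, in CPM. Levels are given for clusters of at least 50 cells, with the range over pools that held at least 10 of its cells. The pools hold mixed tumors and are not separate animals, and it is not known whether long-term pools 1 and 2, which share many barcodes, come from separate captures, so each cell type counts as 1 sample per experiment, and no p-value was computed. The clusters were made by the authors from the expression of the same cells, so differences between clusters are descriptions. Intervals at 95% on levels and ratios cover counting error only. A gene is called apart between 2 sets of cells when its pool ranges do not overlap and its levels differ by at least 1.5-fold, among genes whose mean over both sets is at least 5 CPM.

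The 7 members with measurable levels differed in how much they varied between cell types. Over the 21 long-term clusters, Tbk1 had an SD of 0.30 on the log2(CPM + 1) scale, and only 4.91% of 8001 genes with sufficient level had a smaller SD. Irf3 had an SD of 0.42, with 21% of genes below it. The kinase and the transcription factor were thus measured at similar levels in most clusters, from 17.4 to 50.0 CPM for Tbk1 and from 10.9 to 52.6 CPM for Irf3, with the highest level of both in endothelial cells. The pool ranges of endothelial cells were wide, 9.29 to 92.5 CPM for Tbk1 and 30.4 to 74.7 CPM for Irf3. Cgas and Sting1, the sensor and its adaptor, had SDs of 1.33 and 1.34, with 74.1% and 74.3% of genes below them. Samhd1, Ifnar1 and Ifnar2 lay between, with SDs of 0.95, 0.81 and 0.97, and 64.8%, 59.5% and 65.4% of genes below them. Ordering the clusters by level, the pool ranges of neighbours overlapped in all 20 pairs for Tbk1, Irf3 and Ifnar1. They did not overlap in 1 pair for Cgas, Samhd1 and Ifnar2 each, and in 2 pairs for Sting1. Neighbours in such an order are close by construction, and no fold was required for this count.

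**Figure D1:**
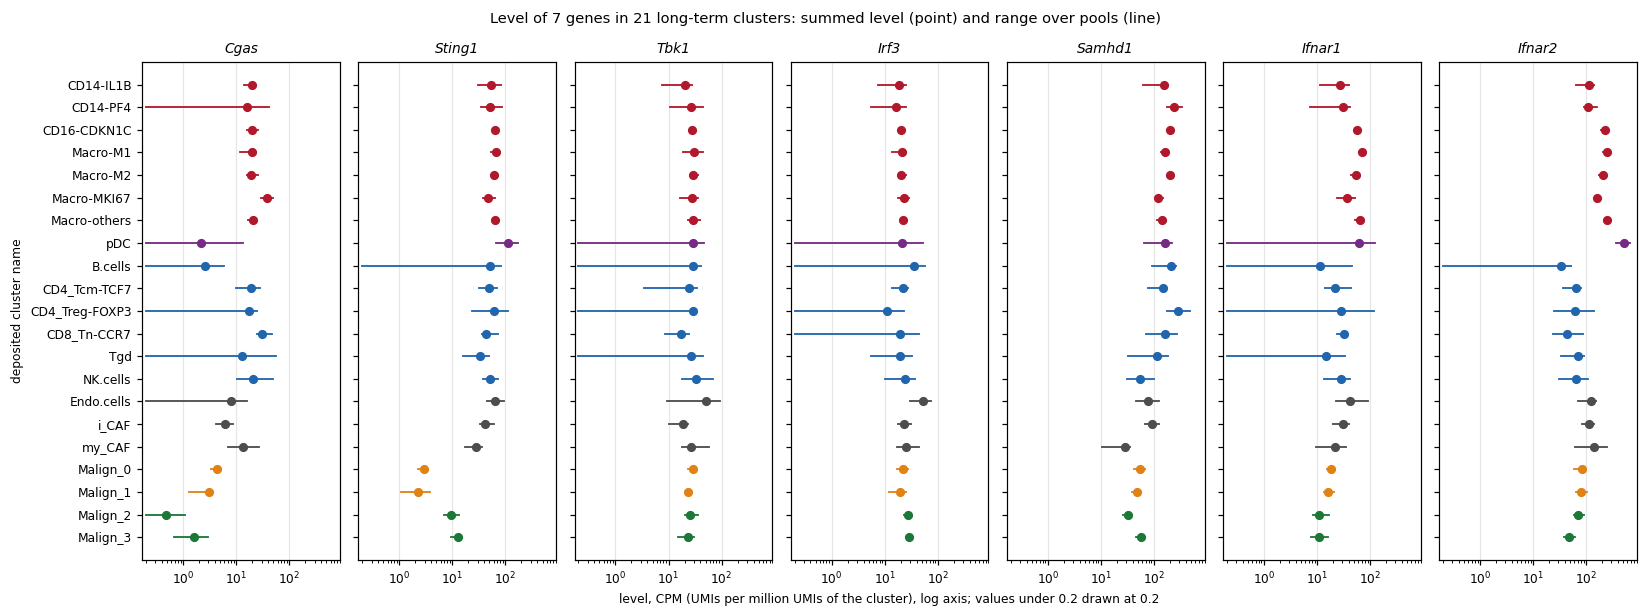
Level of Cgas, Sting1, Tbk1, Irf3, Samhd1, Ifnar1 and Ifnar2 (CPM, log axis) in the 21 long-term clusters, with a point for the summed level and a line for the range over pools. Tbk1 and Irf3 stay near 20 to 30 CPM in most clusters, whereas Cgas and Sting1 are lowest in the 4 malignant clusters or, for Cgas, in these, pDC and B cells.

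The sensor and the adaptor took opposite orders in the malignant cells of both lines. Sting1 was at 10.7 CPM in long-term T22 malignant cells, from 8.84 to 13.6 CPM over 8 pools with a median of 10.8 CPM. T127 malignant cells from these pools held it at 2.65 CPM, from 2.16 to 3.11 CPM with a median of 2.75 CPM. The lowest T22 pool lay above the highest T127 pool, and the ratio was 4.04 (interval 3.46 to 4.73), and from 2.84 to 5.01 within single pools. Cgas had the reverse order, with 36 UMIs or 0.92 CPM in T22 malignant cells, from 0.36 to 1.75 CPM over pools, and 379 UMIs or 3.78 CPM in T127 malignant cells, from 3.35 to 4.39 CPM. The T127 level of Cgas was 4.13 times that of T22 (interval 2.93 to 5.99) with no overlap between pools. Within single pools the ratio of T22 over T127 spread more widely, from 0.0865 to 0.40. The T22 level was 0.36 to 0.75 CPM in pools 1 to 4 and 0.97 to 1.75 CPM in pools 5 to 8.

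The short-term experiments, with other mice and captures, gave the same order. Sting1 was at 11.6, 12.4, 11 and 10.7 CPM in T22 malignant cells of the 4 short-term T22 pools. It was at 3.07, 2.80, 2.39 and 3.01 CPM in T127 malignant cells of the 4 short-term T127 pools, a ratio of 4.06 (interval 3.60 to 4.58). Cgas was at 0.93, 0.95, 0.95 and 0.80 CPM in T22 and at 7.70, 7.07, 7.65 and 6.97 CPM in T127 malignant cells. All 4 T127 pools stood above all 4 T22 pools for Cgas, by 48 against 1295 UMIs in all. Of the T22 clusters Malign_2 held the least Cgas, at 0.44 CPM in short-term and 0.47 CPM in long-term pools. In Malign_3 it was at 4.31 to 6.21 CPM in short-term and 0.66 to 2.94 CPM in long-term pools, which overlapped the T127 cluster Malign_1 at 5.72 to 8.11 and 1.30 to 3.64 CPM. Here line and capture cannot be told apart, since T22 and T127 tumors were in different pools, whereas in the long-term experiment both lines were in the same pools.

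**Figure D2:**
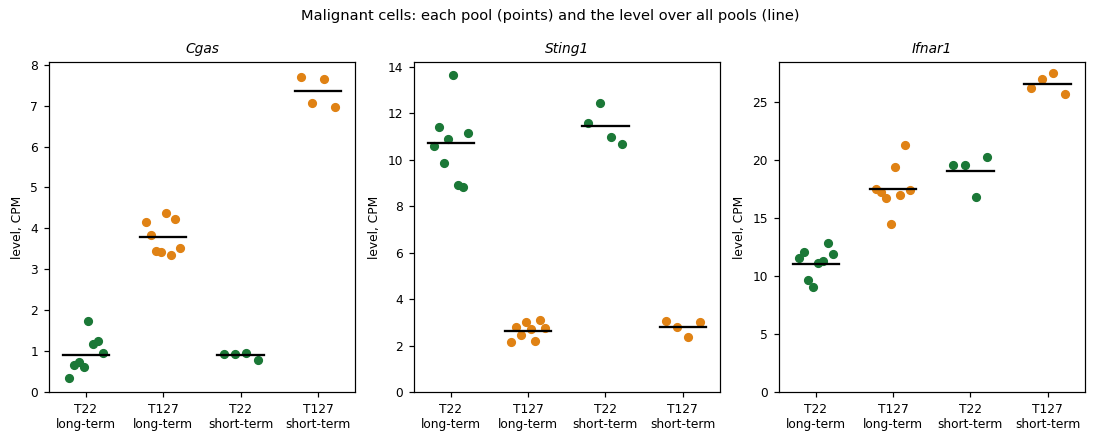
Level (CPM) of Cgas, Sting1 and Ifnar1 in malignant cells of the T22 (green) and T127 (orange) lines, with a point for each of 8 long-term or 4 short-term pools and a line for the level over all pools. In both experiments the Sting1 points of T22 lie above those of T127, and the Cgas and Ifnar1 points lie below.

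These differences stand in a setting where most genes differed between the lines. Of 9296 genes tested in the long-term comparison 53% were apart (25.8% higher and 27.2% lower in T22), and of 9958 in the short-term comparison 59.9% (27.9% higher and 32% lower). Of the 9 members 6 passed the level minimum in each: Sting1 and Ifnar1 were apart in the long-term experiment, higher and lower in T22, and Sting1 alone in the short-term experiments, so the members' share was no higher than the background. Cgas lay under the minimum, with a mean of both lines below 5 CPM, and was apart in both comparisons without a minimum, when 35.0% of 20679 and 49.1% of 21901 genes with a UMI were apart.

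Ifnar1, the receptor chain that binds TYK2, was at 11 CPM in long-term T22 malignant cells (8 pools, 9.02 to 12.9 CPM) and at 17.5 CPM in T127 malignant cells (14.5 to 21.3 CPM), a ratio of 0.63 (interval 0.57 to 0.70). In the short-term experiments it was at 19.1 and 26.6 CPM with no overlap, a ratio of 0.72 that did not reach 1.5-fold. Irf3 was at 28.4 and 20.7 CPM in long-term and at 29.4 and 25.2 CPM in short-term T22 and T127 malignant cells, and its pools did not overlap in either experiment, with ratios of 1.37 and 1.17. The ratios of T22 over T127 malignant cells for Tbk1, Samhd1 and Ifnar2 were 0.93, 0.81 and 0.75 in the long-term experiment, where their pools overlapped. Within single pools Ifnar2 was lower in T22 in 8 of 8, with ratios of 0.66 to 0.86. Irf3 was higher in 8 of 8, which follows from its pools not overlapping, with ratios of 1.22 to 1.53. In the short-term experiments the ratios for Tbk1, Samhd1 and Ifnar2 were 0.94, 0.82 and 0.83.

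Lyz2, a macrophage gene, was measured beside these values. It was at 0.62% and 1.13% of its myeloid level in the T22 clusters Malign_2 and Malign_3, and at 0.41% and 0.48% in the T127 clusters Malign_0 and Malign_1. Sting1 was at 15.4% and 20.3% of its myeloid level in Malign_2 and Malign_3, and at 4.72% and 3.65% in Malign_0 and Malign_1. Cgas was at 20.8% and 14.6% of its myeloid level in Malign_0 and Malign_1, and at 2.27% and 7.68% in Malign_2 and Malign_3. All of these shares exceeded that of Lyz2 in the same cluster, by the least for Cgas in Malign_2, and the part of macrophage RNA in the Cgas and Sting1 counts was not tested.

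Among 40 other genes of nucleic acid sensing and interferon signalling, 26 passed the level minimum between the lines in the long-term experiment, 8 were apart and higher in T22 and 8 were apart and lower, beside the background of 53%. In T22 malignant cells the DNA sensor genes Aim2 and Ifi204 were at 0.61 and 1.27 CPM, against 12.5 and 33.3 CPM in T127. The RNA sensor gene Ddx58 was at 78.0 against 21.4 CPM, and Dnase2a, which encodes the DNase of the lysosome, at 38.1 against 7.04 CPM. Of the 3 subunits of RNase H2, which removes ribonucleotides from DNA, Rnaseh2a was lower in T22 (13.6 against 45.7 CPM), and Rnaseh2b (30.7 against 15.1 CPM) and Rnaseh2c (123 against 61.9 CPM) were higher. Jak1, the kinase bound to IFNAR2, was at 43.7 against 177 CPM, and Socs1, its inhibitor, at 29.9 against 95 CPM. In the short-term experiments 28 passed, 5 were higher and 13 lower in T22, beside backgrounds of 27.9% and 32%, with Irf7 (13.2 against 58.8 CPM) and Usp18 (6.59 against 36.1 CPM) among those lower and Ddx58 (76.9 against 26.9 CPM) among those higher.

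Within the T22 line, the keratin-rich cluster Malign_3 held more Samhd1 than Malign_2. Samhd1 was at 56.7 CPM in long-term Malign_3 (45.4 to 66.1 CPM) and at 31.9 CPM in Malign_2 (26.2 to 38.7 CPM), a ratio of 1.78 (interval 1.61 to 1.96). It was at 68.7 and 37.9 CPM in short-term T22 tumors, a ratio of 1.81 (interval 1.61 to 2.03), again without overlap. Samhd1 was the only one of 6 members tested that was apart in the long-term experiment, with a background of 24.7% (11.9% higher and 12.9% lower). Short-term Malign_3 also held more Sting1 (17.0 against 10.8 CPM) and less Ifnar2 (34.5 against 68.7 CPM), with a background of 33% (16.5% in each direction). The long-term ratios of Sting1 and Ifnar2 were 1.32 and 0.68, with overlapping pools. Cgas had 25 UMIs in long-term Malign_3 and 11 in Malign_2, and 27 and 21 UMIs in the short-term pools, or 5.15 and 0.44 CPM. Within the T127 line none of the members tested, 5 long-term and 6 short-term, was apart between Malign_1 and Malign_0, with backgrounds of 3.35% (2.04% higher, 1.32% lower) and 4.32% (3.04% higher, 1.28% lower).

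Monocytes and macrophages held more of the sensor, the adaptor, Samhd1 and both receptor chains than malignant cells. Cgas was at 20.6 CPM in long-term myeloid cells (7 clusters summed, 17.9 to 25.1 CPM over 8 pools) and at 2.97 CPM in malignant cells (4 clusters summed, 2.61 to 3.65 CPM), a ratio of 6.93 (interval 6.26 to 7.70). Sting1 was at 61.8 CPM, from 59.7 to 63.8 CPM, against 4.93 CPM, from 3.85 to 5.77 CPM, a ratio of 12.5 (interval 11.6 to 13.6). Every myeloid pool stood above every malignant pool for both genes. The ratios were 3.57 for Samhd1 (174 against 48.8 CPM), 3.61 for Ifnar1 (56.5 against 15.6 CPM) and 2.90 for Ifnar2 (218 against 75.2 CPM). Tbk1 was at 28.4 and 26.0 CPM and Irf3 at 20.9 and 22.9 CPM, with overlapping pools.

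Of the 7 members tested in this comparison 5 were apart, all higher in myeloid cells. The background was 59.4% of 9374 genes in either direction, 19.6% higher and 39.8% lower in myeloid cells, and the median log2 ratio of all genes tested was -0.35. Of the 40 other pathway genes 30 passed the level minimum, 17 were higher and 3 were lower. The highest ratios were those of Tlr7, an endosomal RNA sensor (35.8 against 0.38 CPM), and Irf5, a transcription factor downstream of it (13.7 against 0.10 CPM). Receptor genes of interferon gamma, Ifngr1 (377 against 62.0 CPM) and Ifngr2 (219 against 47.9 CPM), and Il10rb, a chain shared by the receptors of interferon lambda and IL-10 (132 against 39.9 CPM), were also higher. The genes that were lower in myeloid cells were Rnaseh2a, Enpp1, which encodes an enzyme that degrades cGAMP (16.1 against 27.2 CPM), and Socs1.

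Compared with T, NK and B cells, myeloid cells held more of both receptor chains. Ifnar1 was at 56.5 CPM in long-term myeloid cells and at 22.2 CPM in lymphoid cells (16.2 to 31.0 CPM), a ratio of 2.54 (interval 2.21 to 2.94). Ifnar2 was at 218 CPM against 60.8 CPM (38.0 to 70.7 CPM), a ratio of 3.58 (interval 3.30 to 3.90). These were 2 of 7 members tested, with a background of 38.2% of 8916 genes (19% higher and 19.2% lower) and a median log2 ratio of -0.15. Sting1 was at 61.8 against 47.8 CPM with no overlap but below 1.5-fold, and Cgas at 20.6 against 17.7 CPM with overlap. Samhd1 was at 174 against 134 CPM with overlap, a ratio of 1.30, and with only cells of at least 1000 genes its log2 ratio was 0.58 in place of 0.38 and it was apart. Samhd1 was highest of all long-term clusters in regulatory T cells (CD4_Treg-FOXP3, 280 CPM, 173 to 482 CPM), and at 54.4 CPM in NK cells (30.6 to 102 CPM). In the short-term T127 pools the regulatory T cells also had the highest level, at 507 CPM (455 to 565 CPM). The short-term T22 pools held only 5 regulatory T cells, and CD14-PF4 had the highest level there, at 686 CPM. Among the other pathway genes 31 passed the level minimum against lymphoid cells, 10 were higher and 5 lower in myeloid cells. Those higher included 4 of 8 sensors tested, Ifi204 (65.7 against 9.32 CPM), Ifih1 (40.5 against 11.5 CPM), Mavs (9.43 against 5.42 CPM) and Tlr7 (35.8 against 2.38 CPM), and those lower included Ifng (0.18 against 41.1 CPM) and Jak1 (151 against 525 CPM).

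Between the macrophage clusters named M2 and M1 the differences were below 1.5-fold. None of the 7 members tested was apart between Macro-M2 and Macro-M1, against a background of 3.56% of 8282 genes (3.09% higher and 0.471% lower). Cgas was at 18.8 and 19.5 CPM, with a ratio of 0.96 (interval 0.83 to 1.12), and Sting1 at 61.6 and 66.7 CPM, with a ratio of 0.92 (interval 0.85 to 1.00). Ifnar1 was at 53.7 CPM in Macro-M2 (43.9 to 62.2 CPM) and 70.8 CPM in Macro-M1 (61.0 to 82.6 CPM), and Samhd1 at 200 and 162 CPM. Their pool ranges overlapped, but within each of the 8 pools Macro-M2 had the lower Ifnar1 and Ifnar2 and the higher Samhd1 level. None of the 30 other pathway genes tested was apart.

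The cluster Macro-MKI67, named as proliferating macrophages, held the highest Cgas level of any cluster in all 3 experiments. In the long-term pools it was not apart from the next, CD8_Tn-CCR7 at 30.4 CPM, nor in short-term T22 pools from proliferating T cells. In short-term T127 pools it was apart from the next, Macro-others at 29.4 CPM. It still overlapped the regulatory T cells there, which reached 49.6 CPM in pool 2 on 4 UMIs. Cgas was at 38.5 CPM in long-term Macro-MKI67 (28.7 to 49.2 CPM) and at 19.8 CPM in the other myeloid clusters summed (17.1 to 23.8 CPM), a ratio of 1.95 (interval 1.71 to 2.21). In the short-term T22 pools it was at 68.2, 80.7, 66.0 and 84.8 CPM in Macro-MKI67, against 29.0 CPM in the others, a ratio of 2.59 (interval 2.32 to 2.89). In the short-term T127 pools it was at 44.9, 62.0, 87.6 and 38.0 CPM, against 25.8 CPM, a ratio of 2.32 (interval 1.99 to 2.69). The pools of the 2 sets did not overlap in any experiment, although the T127 values spread more than 2-fold. The cluster is named for Mki67, a gene of dividing cells, and Top2a was also highest there (788 CPM in the long-term pools). The long-term clusters second for these genes were B cells for Mki67 (162 CPM) and gamma delta T cells for Top2a (384 CPM). Cgas in their pools was at 0 to 5.94 and 0 to 55.0 CPM, and a link of Cgas to proliferation was not tested. Proliferating T cells (Tprf-MKI67), which reached 50 cells only in short-term T22 pools, had the second highest Cgas level of that experiment, 66.6 CPM (50.6 to 76.0 CPM), ahead of NK cells at 40.9 CPM (38.7 to 42.5 CPM).

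The other members did not share this. Cgas was the only member of 7 that was higher in Macro-MKI67, with backgrounds of 12.1% in long-term (9.55% higher, 2.55% lower), 17.5% in short-term T22 (12.8% higher, 4.68% lower) and 22.2% in short-term T127 pools (13.9% higher, 8.29% lower). Sting1 was at 46.7 against 62.5 CPM in the long-term pools, with a ratio of 0.75, and at ratios of 0.827 and 0.835 in the short-term T22 and T127 pools, with overlap in all. Samhd1 had ratios of 0.68, 0.69 and 0.51, and Ifnar1 of 0.635, 0.725 and 0.661, and both were apart and lower in the short-term T127 pools.

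Plasmacytoid dendritic cells (pDC), known for their high output of type I interferon, had the reverse pattern, with very little Cgas and high Sting1 and Ifnar2. Among 170 long-term pDC Cgas had 2 UMIs, 1 in pool 1 and 1 in pool 4, or 2.15 CPM (interval 0.26 to 7.78 CPM), against 20.6 CPM in myeloid cells. Among 136 short-term T127 pDC it had 0 UMIs, which allows up to 2.85 CPM at 3 counts, against 31.4 CPM in myeloid cells. Sting1 was at 110 CPM in long-term pDC (66.1 to 174 CPM), a ratio of 1.78 (interval 1.45 to 2.16) to myeloid cells. In short-term T127 pDC it was between 123 and 129 CPM in all 4 pools, a ratio of 1.64 (interval 1.37 to 1.96). Ifnar2 was at 509 CPM (370 to 661 CPM) and 689 CPM (483 to 827 CPM), with ratios of 2.34 (interval 2.13 to 2.56) and 4.41 (interval 4.07 to 4.77). All pDC pools stood above all myeloid pools for Sting1 and Ifnar2, and below them for Cgas. Ifnar1 was apart and higher only in the short-term T127 pools, at 159 against 77.8 CPM. Thus 3 of 7 members were apart in the long-term and 4 of 7 in the short-term T127 pools, with backgrounds of 21.7% (8.45% higher, 13.3% lower) and 42.6% (19.9% higher, 22.7% lower). Lyz2 in pDC was at 1.27% and 1.02% of its myeloid level.

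**Figure D3:**
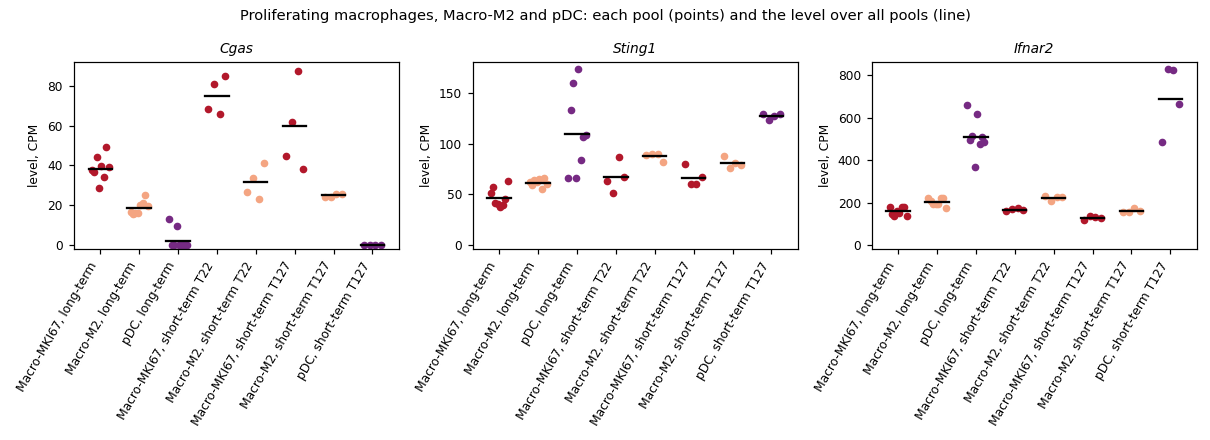
Level (CPM) of Cgas, Sting1 and Ifnar2 in Macro-MKI67, Macro-M2 and pDC, with a point for each pool of at least 10 cells and a line for the level over all pools (pDC had 35 cells in short-term T22 pools and are not drawn there). Cgas is highest in Macro-MKI67. In pDC it is at 0 in all but 2 long-term pools, at 13.2 and 9.50 CPM, and pDC have the highest Sting1 and Ifnar2 points.

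Fibroblasts (i_CAF) also held more Sting1 than malignant cells. Its long-term level was 41.6 CPM (32.6 to 62.1 CPM), 3.88 times the level of T22 malignant cells (interval 3.39 to 4.44). Samhd1, Ifnar1 and Ifnar2 were apart in the same direction, with ratios of 2.23, 2.76 and 1.87, which made 4 of 6 members against a background of 49.3% (23.8% higher and 25.5% lower). Tbk1 was at 18.6 against 24.6 CPM and Irf3 at 23.6 against 28.4 CPM, with overlap. Cgas had 66 UMIs in i_CAF, or 6.23 CPM (4.07 to 8.61 CPM), between the malignant and the myeloid levels. Lyz2 was at 3.40% of its myeloid level in these fibroblasts, Cgas at 30.2% and Sting1 at 67.4%.

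Between myeloid cells of short-term T22 and T127 tumors, Samhd1 differed most. It was at 181, 202, 184 and 194 CPM in the T22 pools and at 319, 300, 310 and 284 CPM in the T127 pools. All T127 pools stood higher, and the ratio was 0.63 (interval 0.61 to 0.65). Samhd1 was the only one of 7 members that was apart, against a background of 29.1% of 9025 genes (11.1% higher and 18.1% lower) and a median log2 ratio of -0.14. Ifnar2 (213 against 156 CPM), Ifnar1 (98.8 against 77.8 CPM) and Tbk1 (63.2 against 52.2 CPM) were higher in T22 without overlap but below 1.5-fold, and with each cell weighted equally the log2 ratios of Ifnar1 and Tbk1 turned to -0.03 and -0.07. Cgas and Sting1 had ratios of 1.04 and 1.04.

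The clusters that made up these myeloid cells differed, with 4205 CD16-CDKN1C cells as the largest cluster of the T22 pools and 1174 Macro-M2 cells as the largest of the T127 pools. Within Macro-M2 the Samhd1 level was 279 CPM in T22 (254 to 329 CPM) and 347 CPM in T127 (333 to 371 CPM), without overlap and with a ratio of 0.80, and no member was apart there, with a background of 26.6% (11.6% higher and 15% lower). Within CD16-CDKN1C it was 180 CPM (161 to 197 CPM) and 424 CPM (404 to 442 CPM). The cells of that cluster were shallow and of unequal depth, with medians of 2407 UMIs in T22 and 4922 in T127. In Macro-M2 the medians were 13221 and 11285.5 UMIs. When mitochondrial and ribosomal protein genes were left out of the totals the log2 ratio over all myeloid cells moved from -0.67 to -0.55, and Samhd1 was no longer past 1.5-fold. Of the other pathway genes 31 passed the level minimum, 3 were higher and 12 lower in T22 myeloid cells, beside the 11.1% and 18.1% of all genes. Those lower included Irf7 (124 against 318 CPM), Zbp1 (58.6 against 116 CPM), Ddx58 (17.3 against 54.1 CPM) and Usp18 (21.6 against 43.4 CPM). Line and capture cannot be told apart here.

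Tbk1 was about 2-fold higher in the short-term than in the long-term experiment across cell types. In T22 malignant cells it was at 46.9, 49.2, 43.9 and 50.3 CPM in the 4 short-term pools and from 18.8 to 31.2 CPM in the 8 long-term pools, a ratio of 1.94 (interval 1.80 to 2.09). In T127 malignant cells it was at 49.2, 52.0, 52.4 and 50.0 CPM against 23.2 to 29.6 CPM, a ratio of 1.92 (interval 1.84 to 2.00). In Macro-M1 of T22 tumors and Macro-M2 of T127 tumors the ratios to the long-term clusters were 2.19 and 1.99. The short-term T22 level was above the long-term level in 16 of 16 clusters measured in both, without overlap of pools in 14, with a median ratio of 2.32. The short-term T127 level was above it in 13 of 14 clusters, without overlap in 7, with a median ratio of 1.82.

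Ifnar1 moved in the same direction, with the higher level in the short-term experiment in 16 of 16 T22 clusters (median ratio 1.86) and 14 of 14 T127 clusters (median ratio 1.63). Its pools did not overlap in 12 and 8 of these. In the malignant cells it had ratios of 1.73 and 1.52 in T22 and T127. Cgas was higher in 14 of 16 T22 clusters (median ratio 1.54) and 13 of 14 T127 clusters (1.42), without overlap in 4 and 4. Samhd1 was higher in 13 of 16 (1.2) and 12 of 14 (1.60), without overlap in 3 and 5, and Sting1 in 11 of 16 (1.18) and 12 of 14 (1.30), without overlap in 4 and 2. Irf3 and Ifnar2 had the smallest median ratios of the 7 measurable members, 1.00 and 0.99 in T22 and 1.19 and 1.08 in T127 clusters, and Ifnar2 was not apart in any of the 4 comparisons of experiments that were made. Ifnar2 was lower in the short-term experiment without overlap in 1 T22 and 3 T127 clusters, with a lowest ratio of 0.63. Irf3 was lower without overlap in 1 T22 cluster, the endothelial cells, at a ratio of 0.39, and higher without overlap in 1 T127 cluster. Cgas was apart and higher in short-term T127 malignant cells, at 7.36 against 3.78 CPM (ratio 1.95). In T22 malignant cells it was at 0.91 and 0.92 CPM, but the mixture of clusters differed. Malign_3 made up 218 of 1954 short-term and 907 of 2259 long-term T22 malignant cells. Within Malign_3 Cgas was higher in the short-term pools without overlap (4.31 to 6.21 against 0.66 to 2.94 CPM, ratio 3.25). Within Malign_2 it was at 0.44 and 0.47 CPM.

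The experiments differed in many genes. The members apart, all higher in the short-term experiment, were 2 of 6 tested in T22 malignant cells and 3 of 6 in T127 malignant cells, 3 of 7 in Macro-M1 of T22 tumors (Tbk1, Ifnar1 and Cgas) and 3 of 7 in Macro-M2 of T127 tumors (Tbk1, Ifnar1 and Samhd1). The background was 44% (35.8% higher, 8.17% lower) in T22 and 46.8% (39.3% higher, 7.5% lower) in T127 malignant cells. It was 33.8% (30.1% higher, 3.73% lower) in Macro-M1 and 40.9% (32.2% higher, 8.62% lower) in Macro-M2, and the median log2 ratios of all genes tested were 0.29, 0.34, 0.34 and 0.27. A second reference was 8001 genes with a mean of at least 10 CPM over the long-term clusters, whatever their short-term level. Of these, 98.3% had a smaller median ratio over the T22 clusters than Tbk1, and 91.2% than Ifnar1. The ratios compared with this reference used a pseudocount of 1 CPM. Over the T127 clusters the shares were 85.6% and 78.9%. They were 77.3% and 69.3% for Cgas, 58.0% and 78.4% for Samhd1, and 56.7% and 63.6% for Sting1 over the T22 and T127 clusters. The median ratio of the 8001 genes was 1.09 and 1.10. Treatment time, capture, depth and the mixture of single and co-transplanted tumors cannot be told apart in this comparison. For clusters other than malignant the tumor line cannot be told apart either, since the long-term pools mix T22 and T127 tumors.

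**Figure D4:**
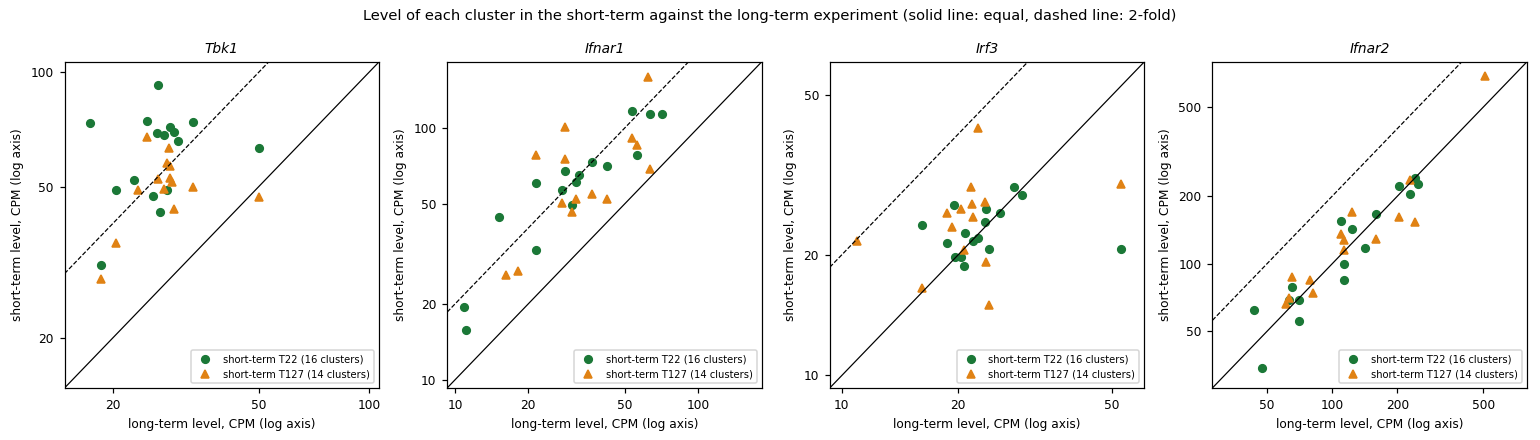
Level (CPM, log axes) of Tbk1, Ifnar1, Irf3 and Ifnar2 in each cluster of at least 50 cells in both experiments, short-term (vertical) against long-term (horizontal), with circles for T22 and triangles for T127 tumors. Tbk1 and Ifnar1 points lie mostly above the line of equal level and near the 2-fold line, and Irf3 and Ifnar2 points lie around the line of equal level.

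Ifnb1, the interferon gene at the end of the pathway, was seen in very few cells. It had 50 UMIs in 13 of 25723 long-term cells, 12 UMIs in 8 of 15094 short-term T22 cells and 4 UMIs in 2 of 8007 short-term T127 cells. A single Macro-M1 cell of long-term pool 8 held 19 of the 50 long-term UMIs. Other cells with several UMIs were a Macro-M2 cell with 6, and a Malign_3, a pDC and a CD16-CDKN1C cell with 5 each. By cell type the long-term UMIs were 38 in myeloid cells, 6 in pDC, 5 in malignant cells and 1 in i_CAF, the 5 malignant ones in 1 T22 cell. Malignant cells had 0 in the short-term experiments, which allows up to 0.0567 CPM in T22 and 0.0171 CPM in T127 at 3 counts, and long-term T127 malignant cells had 0, which allows up to 0.0299 CPM. Lymphoid cells had 0 in all 3 experiments. In every cluster with Ifnb1 its UMIs came from 1 to 4 cells, and differences between clusters were not detectable at this depth. None of the 8 other interferon genes on the pathway list passed the level minimum between the lines or between myeloid and malignant cells.

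Trex1 was listed at 0 UMIs in all 53946 deposited cells of the 16 pools, as were 7482 of the 32285 genes (23.2%). Atrip and Shisa5, which flank Trex1 in the genome, had 6971 and 167141 UMIs. Only if reads of Trex1 could be counted at all would 3 counts set an upper limit on its level. This limit would be 0.0098 CPM in the long-term, 0.018 in the short-term T22 and 0.014 CPM in the short-term T127 cells. The cause of the 0 was not tested.

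Levels across cell types were described further by likeness. Over the 21 long-term clusters, which share pools and differ in depth, Ifnar1 and Ifnar2 had a Pearson r of 0.81 between them on the log2(CPM + 1) scale, and Sting1 and Samhd1 one of 0.67. Cgas and Sting1 had an r of 0.53, Tbk1 and Irf3 one of 0.46, and Cgas and Irf3 one of -0.39. Among genes with a mean of at least 10 CPM, those most like each member were Cotl1 (r of 0.91), Lfng and Ubash3b for Cgas, and Rftn1 (0.94), Tacc1 and Ankrd13a for Sting1. For Samhd1 they were Tmem179b (0.90), Gpr183 and Slfn2. For the receptor chains they were Il10rb (0.91) and Ifit2 for Ifnar1, and Grn (0.92), Srd5a3 and Svbp for Ifnar2. Tbk1 and Irf3, which varied little, had the lowest best values, 0.76 with Ipo11 and 0.84 with Dido1.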

How the data were processed

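Droplet-based 3' single-cell RNA sequencing of 16 pools was processed by the authors with Cell Ranger 6.0.0 against GRCm38, with introns counted. They removed cells with few genes or over 20% mitochondrial UMIs and doublets found by Scrublet, so no doublet caller was run again. The deposited matrices used here hold raw UMI counts per gene and cell, and the cluster names are the deposited ones. A deposited normalized table of variable genes was not used.

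Counts were summed per cluster and pool and divided by the total (CPM). In long-term pools the deepest copy of a shared barcode was kept. Malignant clusters were assigned to lines as the study does. No cell of Malign_0 or Malign_1 was in short-term T22 pools, and none of Malign_2 or Malign_3 in short-term T127 pools. Intervals at 95% are exact Poisson for levels and exact conditional binomial for ratios, and cover counting error only. Log2 ratios use a pseudocount of 1 CPM.

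The members, the 40 pathway genes and the marker lists were chosen with earlier results of these data known. The genes named are the members, the pathway list and the 3 genes most like each member, of which 1 is not reported here. Comparisons of Macro-MKI67, pDC, i_CAF, malignant clusters within a line, Macro-M2 between lines and short-term with long-term cells were added after values were seen. The call was tested on simulated counts with 200 changed genes, drawn with counting error only and no other spread between pools. Alternatives were every copy of a barcode, at least 1000 genes per cell, removal of the 5% of cells with most UMIs in each pool, a total without mitochondrial and ribosomal protein genes, equal weight per cell, a 2-fold call, no minimum level, a pseudocount of 10 CPM and each pool left out. Leaving out long-term pools 1 to 3, myeloid cells without CD14-IL1B and CD14-PF4, and ratios paired by long-term pool, were chosen after seeing the data. The labels name a human organism, while the protocols and build are of the mouse. The tools were pandas 2.3.3, scipy 1.17.1, numpy 2.4.6 and matplotlib 3.10.9 under Python 3.11.15.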

Additional observations from a re-analysis of the deposited data

Results flagged for a closer look

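Among 70 sets of 4 or 8 pools (the 7 measurable members in 10 sets of cells), 4 had a pool whose gap to the nearest other pool was above Dixon's critical value at 95%, and chance flags about 1 in 20 such sets. Tbk1 in long-term Macro-M2 was highest in pool 7, at 35.2 CPM, with the next at 29.8 CPM. Irf3 in long-term Macro-M2 was highest in pool 2, at 24.8 CPM, with the next at 21.4 CPM. Cgas in short-term T22 malignant cells was lowest in pool 4, at 0.80 CPM, with the next at 0.93 CPM. Cgas in short-term T22 myeloid cells was highest in pool 4, at 34.2 CPM, with the next at 32.3 CPM.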

How the results depend on the processing

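The 4 long-term comparisons were also paired by pool, a choice made after seeing the data. Members counted here passed the level minimum and had 1 direction in all 8 pools and a median ratio past 1.5-fold. This pairing gave 2 between T22 and T127 malignant cells and 5 between myeloid and malignant cells, as reported. It gave 2 between myeloid and lymphoid cells and 0 between Macro-M2 and Macro-M1, also as reported. Cgas, with a median ratio of 0.24 between T22 and T127 malignant cells, was left out there by the level minimum. The short-term lines were in different pools and could not be paired. Within pools Sting1 and Irf3 were higher in T22 than T127 malignant cells in 8 pools and Cgas, Ifnar1 and Ifnar2 were lower in 8. The 5 members called between myeloid and malignant cells and the 2 between myeloid and lymphoid cells were higher in 8. Where the pools of 2 sets do not overlap, 1 direction in all 8 pools follows from that. This holds for every called member and for Cgas and Irf3 between the lines, so the pairing adds no support for their direction. Of the genes named here only Ifnar2 had overlapping pools. The number of members apart in the 6 planned comparisons was the same as reported, or within 1.5 times of it, in 90 of 93 alternatives. Among these, cells with at least 1000 genes gave 3 in place of 2 between myeloid and lymphoid cells, with Samhd1 gained. With a 2-fold call it fell from 2 to 1 between long-term T22 and T127 malignant cells, where Ifnar1 was lost, and from 1 to 0 between short-term T22 and T127 myeloid cells, where Samhd1 was lost. Samhd1 was also lost there, for a count of 0, with a total without mitochondrial and ribosomal protein genes. The setting without a minimum level was not among the 93. It added Cgas in the long-term and short-term comparisons of T22 with T127 malignant cells, and the other counts were as reported. With each pool left out the counts ranged from 2 to 2 and 1 to 1 for T22 and T127 malignant cells, long-term and short-term. They ranged from 5 to 5 for myeloid and malignant cells and 2 to 2 for myeloid and lymphoid cells. For Macro-M2 and Macro-M1 they ranged from 0 to 0, and for short-term T22 and T127 myeloid cells from 1 to 1. Leaving out a pool can only narrow a pool range. A called member can then lose its call only through the fold or the level minimum. These runs, part of the 93 alternatives, therefore test the calls only weakly. The pairing by pool, also among the 93, could not reverse the direction of a called member.

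Of 807 alternatives to single log2 ratios and shares of genes, 774 counted as the same, 33 moved by more, and no called ratio changed sign. A ratio counted as the same when it moved by no more than its SD over pools, and a share when it stayed within 1.5-fold. The ratios include those of Trex1, which was at 0 UMIs throughout and could not move, and of Ifnb1. Without long-term pools 1 to 3 the log2 ratio of T22 over T127 malignant cells was 1.65 for Sting1, against 1.68 with them, and -1.16 for Cgas, against -1.32. With each cell weighted equally the log2 ratio of Samhd1 between short-term myeloid cells was -1.05, against -0.67. Depth limits Cgas in T22 malignant cells and pDC, and Ifnb1 everywhere. The pools hold mixed tumors, so the spread between animals is unknown.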
